A study of Homo sapiens with 18 samples.

Results

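RRAGA, RRAGC, RRAGD, FLCN, FNIP2, MCOLN1, MCOLN2, MCOLN3, TFEB and TFE3 are 10 genes of lysosomal nutrient sensing, out of 56629 gene symbols counted in each table. They were selected on 2 of them, RRAGD and MCOLN3, being lower in the ARID2 KO lines of the melanoma cell line SKmel147, so the SKmel147 KO values of all 10 are given as a description with no test. Tests of these 10 genes are of the second cell line, 501mel, and of the control lines. For RRAGD and MCOLN3 no test is read where SKmel147 control lines enter. Other genes were tested in SKmel147 too. All 10 genes passed the low-count filter in every fit. In the SKmel147 fit TFEB passed through KO libraries, which held 6 to 22 of its reads against 1 to 10 in control libraries.

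Polyadenylated RNA of 9 lines was sequenced, with 2 libraries per line and 18 libraries in all. SKmel147, with the NRAS mutation Q61R, gave the control lines Par (no construct) and NT (Lenti-Cas9 with a PLKO guide vector). Its ARID2 KO lines, KO3.20, KO1.5 and KO1.4, carry constructs of the kinds that NT has. The second cell line, 501mel, with the BRAF mutation V600E, gave Par (no construct), NTC (Lenti-CRISPR V2, carrying Cas9 and a guide) and, with that vector, KO5.2 and KO1.8 as ARID2 KO lines. Both are human cell lines from metastatic melanoma, and ARID2 encodes a subunit of the PBAF chromatin remodelling complex. The labels do not spell out NT or NTC, called transduced controls here, nor tell clones from pools, nor say if each library had a culture of its own. P-values over libraries therefore measure a spread that may be only technical.

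The Rag GTPases sit on the lysosome as pairs, RagA or RagB with RagC or RagD, and recruit the kinase complex mTORC1 when amino acids are plentiful. FLCN with FNIP1 or FNIP2 acts on RagC and RagD to switch the pair to its active form, and the active pair brings the transcription factors TFEB and TFE3 to mTORC1, which holds them in the cytoplasm by phosphorylation. When they are released they enter the nucleus and bind E-box sequences in genes of lysosome formation, while the mucolipin channels release calcium from the lysosome, a signal that acts on TFEB through calcineurin. In melanocytes the related factor MITF shares much of this DNA binding.

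The promoter sequences of the genes bear on this, since the E-box is the shared binding sequence of TFEB, TFE3 and MITF. The RefSeq promoter table (GRCh38.p14) held 7 of the 10 genes, with no entry for RRAGA, RRAGD and MCOLN2, which were not searched. The 250 bases before each listed start were searched on both strands for CACGTG and for the variant CATGTG. The longer form GTCACGTG, which contains CACGTG, was searched in the same way. Of 35116 promoters of that length, 6.34% held CACGTG, 2.16% the longer form and 9.42% the variant. MCOLN1 held CACGTG at 41 and at 14 bases before the start, and RRAGC held it at 112, in both genes within GTCACGTG on 1 strand or the other. MCOLN3, TFEB, TFE3 and FLCN held none of the 3 in any window listed, and the second listed start of FNIP2 held CATGTG at 142 bases. Unlike for the other genes, the bases after the listed FNIP2 starts were not found in its annotated transcripts, so that distance is uncertain. MCOLN1 (chr19:7522374-7522623, forward strand) and RRAGC (chr1:38859773-38860022, reverse strand) are shown as the promoters with CACGTG, which is in capitals. MCOLN3 (chr1:85048501-85048750, reverse strand) is shown as the mucolipin that was lower in the SKmel147 KO lines, with no match.
MCOLN1: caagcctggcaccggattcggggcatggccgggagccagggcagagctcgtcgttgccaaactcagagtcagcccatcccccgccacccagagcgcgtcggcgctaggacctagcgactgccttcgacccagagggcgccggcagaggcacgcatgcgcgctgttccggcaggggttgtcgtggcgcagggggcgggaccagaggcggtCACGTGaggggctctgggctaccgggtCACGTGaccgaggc
RRAGC: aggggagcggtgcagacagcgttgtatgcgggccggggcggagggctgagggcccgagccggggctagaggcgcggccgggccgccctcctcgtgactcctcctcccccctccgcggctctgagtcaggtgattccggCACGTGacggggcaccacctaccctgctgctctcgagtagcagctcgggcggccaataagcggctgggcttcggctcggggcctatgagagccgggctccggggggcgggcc
MCOLN3: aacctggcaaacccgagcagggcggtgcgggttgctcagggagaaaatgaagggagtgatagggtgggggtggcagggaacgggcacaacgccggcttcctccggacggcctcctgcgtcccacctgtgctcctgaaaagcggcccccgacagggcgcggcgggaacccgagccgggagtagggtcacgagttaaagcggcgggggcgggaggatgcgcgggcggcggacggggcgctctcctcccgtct
A match describes letters only, and binding was not measured.

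Libraries held 21266522 to 35670140 counts in SKmel147 and 16749707 to 20606855 in 501mel. ARID2 itself was lower in the KO lines without being lost: it stood at 62.3 to 72.8 CPM (reads scaled to library size) in the SKmel147 controls and 39.8 to 57.0 in the KO libraries, and at 40.9 to 43.2 and 19.8 to 31.9 in 501mel. Its log2 fold change was −0.43 ± 0.08 (SE) in SKmel147 (edgeR adjusted p = 0.0039), where KO1.4 alone gave −0.25 (adjusted p = 0.228), and −0.73 ± 0.05 in 501mel (adjusted p = 3.74e-08). All 8 melanocyte markers checked were above 1 CPM in 501mel, against 3 of 8 in SKmel147, where DCT, PMEL, S100B, TYR and TYRP1 were at most 1 CPM by their median. SKmel147 Par replicate 1 held traces of pigment genes, with TYRP1 at 6.37 CPM against 0.137 to 0.697 in the other SKmel147 libraries. Of 10 markers of immune, endothelial, epithelial and fibroblast cells, LUM in SKmel147 was the only one with a median over libraries above 1 CPM.

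In the control lines RRAGA stood above RRAGC and RRAGD per kilobase of merged exon, and TFE3 above TFEB, in both cell lines. Compared per kilobase of exon (RPKM), 501mel held RRAGA highest at 23.5, then RRAGD at 15.5, FNIP2 at 13.3, RRAGC at 11.7, TFE3 at 11.2, MCOLN1 at 6.94, MCOLN2 at 6.59, TFEB at 3.18, MCOLN3 at 2.34 and FLCN at 1.71, each as the mean of 2 lines. The ranges over the 4 control libraries overlapped between RRAGD and FNIP2, between FNIP2, RRAGC and TFE3, and between MCOLN1 and MCOLN2. In SKmel147 the order by RPKM was TFE3 at 31.0, RRAGA at 20.9, RRAGC at 5.92, MCOLN2 at 3.52, RRAGD at 3.40, MCOLN3 at 2.35, MCOLN1 at 1.82, FNIP2 at 1.59, FLCN at 1.11 and TFEB at 0.0395. There, all neighbours in the order from RRAGC down to FLCN overlapped in range, except that RRAGC and MCOLN2 did not. Both orders rest on merged exon length, which exceeds the longest coding transcript by different amounts. For FLCN it is 9786 bases against 3589 positions of a 50-base window in that transcript, and for RRAGC 5167 against 2683. For RRAGD it is 5072 against 4851. An order by transcript length was not computed, so the places of genes may depend on the length used.

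**Figure D1:**
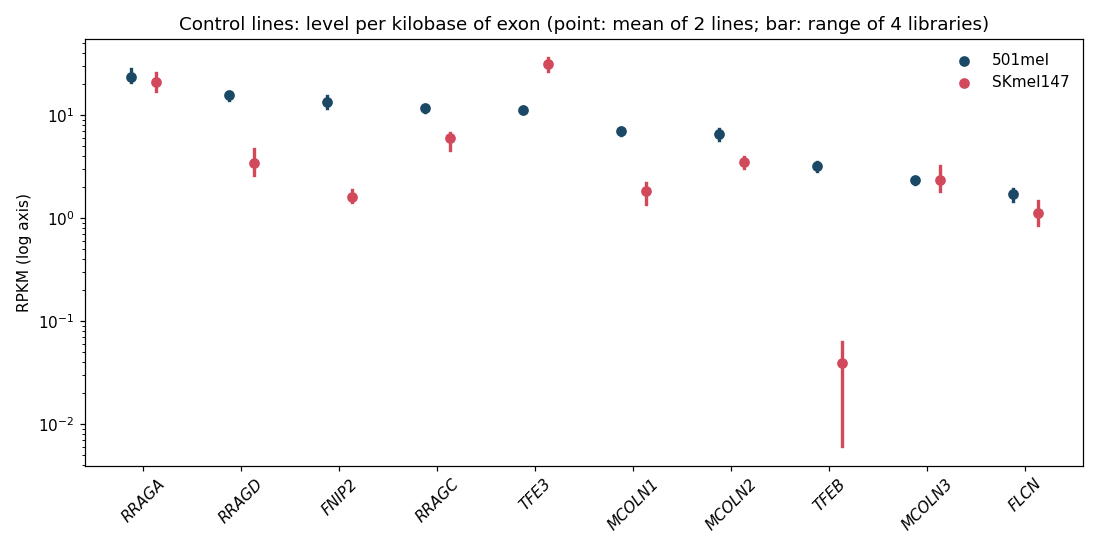
Level of each gene in the control lines in RPKM, on a log axis; points are the mean of 2 lines and bars the range of 4 libraries, in blue for 501mel and red for SKmel147. TFE3 stands higher in SKmel147, at 31.0 against 11.2, MCOLN3 lies at 2.35 against 2.34, and TFEB is the lowest there, at 0.0395 against 3.18.

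In the joint fit of all libraries, 9 of the 10 genes differed between the control lines of SKmel147 and 501mel, beside 80.7% of all 19518 genes tested, so the share called is near the background and the sizes are what the comparison gives. TFEB differed most, by a log2 difference of −6.47 ± 0.20 (adjusted p = 6.87e-15): SKmel147 control libraries held 1 to 10 TFEB reads each, 501mel control libraries 302 to 343. TFE3, its closest relative here, went the other way, at +1.47 ± 0.06 (adjusted p = 8.27e-13). FNIP2, the FLCN partner, was lower in SKmel147 by −3.06 ± 0.08 and RRAGD by −2.21 ± 0.09. MCOLN1, the widely expressed mucolipin, was lower by −1.96 ± 0.11, and RRAGC, MCOLN2 and FLCN were lower by −0.99 ± 0.09, −0.90 ± 0.10 and −0.64 ± 0.13 on the log2 scale. RRAGA differed by −0.18 ± 0.07 (adjusted p = 0.032), a call that was lost in 8 of 28 alternatives, and MCOLN3 by −0.02 ± 0.12. The SKmel147 control values of RRAGD and MCOLN3 also entered the selection, so no test is read for these 2. RRAGD is among the 9 genes called. Cell line and count table cannot be told apart in this comparison. With the line as the replicate, 8 of the 10 remained called. MITF differed in the same direction as TFEB, by −5.83 ± 0.08.

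RRAGD, which encodes the RagD GTPase, had levels in SKmel147 of 14.1 and 12.99 CPM in Par, 23.3 and 17.3 in NT, 6.85 and 7.67 in KO1.4, 5.86 and 5.10 in KO1.5, and 5.32 and 5.58 in KO3.20. All 6 KO libraries were below all 4 control libraries. In bulk RNA, fewer cells with a transcript and less of it per cell cannot be told apart. The log2 fold change was −1.61 ± 0.16 in KO3.20, −1.60 ± 0.16 in KO1.5 and −1.19 ± 0.16 in KO1.4, while the median over 50 neighbouring tested genes on chromosome 6 was 0.00 to 0.07. NT stood above Par by 0.58 ± 0.17, and against Par alone the mean KO value was −1.17 in place of −1.47.

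MCOLN3, a mucolipin found in few cell types, melanocytes among them, had 20.7 and 15.6 CPM in SKmel147 Par, 11.8 and 12.8 in NT, 6.99 and 4.71 in KO1.4, 6.04 and 5.54 in KO1.5, and 6.15 and 7.51 in KO3.20. Its KO libraries also lay below all controls, at −1.37 ± 0.20, −1.37 ± 0.19 and −1.13 ± 0.19 on the log2 scale. The 50 neighbouring tested genes on chromosome 1 had medians of −0.17, −0.13 and −0.19 in KO1.4, KO1.5 and KO3.20. The controls were ordered the other way from RRAGD, with NT below Par by −0.57 ± 0.20. The mean KO value of −1.29 ± 0.13 became −1.01 against NT alone and −1.57 against Par alone.

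RRAGD and MCOLN3 were the 2 genes of the 10 whose SKmel147 KO libraries did not overlap the controls, beside 8.58% of all genes. In that contrast 17.7% of all genes were called, 8.07% higher and 9.60% lower, and since the 10 genes were selected on it nothing is read from their share. The next value below these 2 was MCOLN2, a second mucolipin encoded beside MCOLN3 on chromosome 1. MCOLN2 held 10.2 to 13.1 CPM in the SKmel147 controls and 7.84 to 11.2 in the KO libraries, with a log2 fold change of −0.29 ± 0.12. The groups overlapped for MCOLN2, and its 50 neighbours had medians of −0.13 to −0.20 in the KO lines.

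The other SKmel147 members stayed within 0.1 of 0 on the log2 scale as means over the KO lines, TFEB apart. RRAGA was at 26.4 to 39.9 CPM in the controls and 30.7 to 38.3 in the KO libraries (0.07 ± 0.07), and RRAGC, the partner subunit that can stand in the place of RagD, at 23.1 to 34.1 and 29.5 to 36.5 (0.08 ± 0.10). FLCN was at 8.25 to 14.1 and 9.74 to 14.3 CPM (0.07 ± 0.13), and FNIP2 at 15.3 to 19.95 and 15.8 to 20.2 (0.09 ± 0.10). MCOLN1 was at 5.26 to 8.43 and 5.48 to 7.70 CPM (−0.07 ± 0.13), and TFE3 at 113.1 to 148.7 and 118.1 to 144.5 (−0.01 ± 0.07). For RRAGA, RRAGC, FLCN, MCOLN1 and TFE3 the sign depended on the control: each was below 0 against Par alone and above 0 against NT alone.

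TFEB was close to the limit of counting in SKmel147, with 1 to 10 reads in the control libraries and 6 to 22 in the KO libraries. Its CPM values were 0.281 and 0.344 in Par, 0.0339 and 0.216 in NT, 0.425 and 0.447 in KO1.4, 0.178 and 0.330 in KO1.5, and 0.550 and 0.731 in KO3.20. KO1.5 overlapped the controls, and the fold changes of 1.15 ± 0.55, 0.34 ± 0.58 and 1.69 ± 0.50 rest on these few reads.

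**Figure D2:**
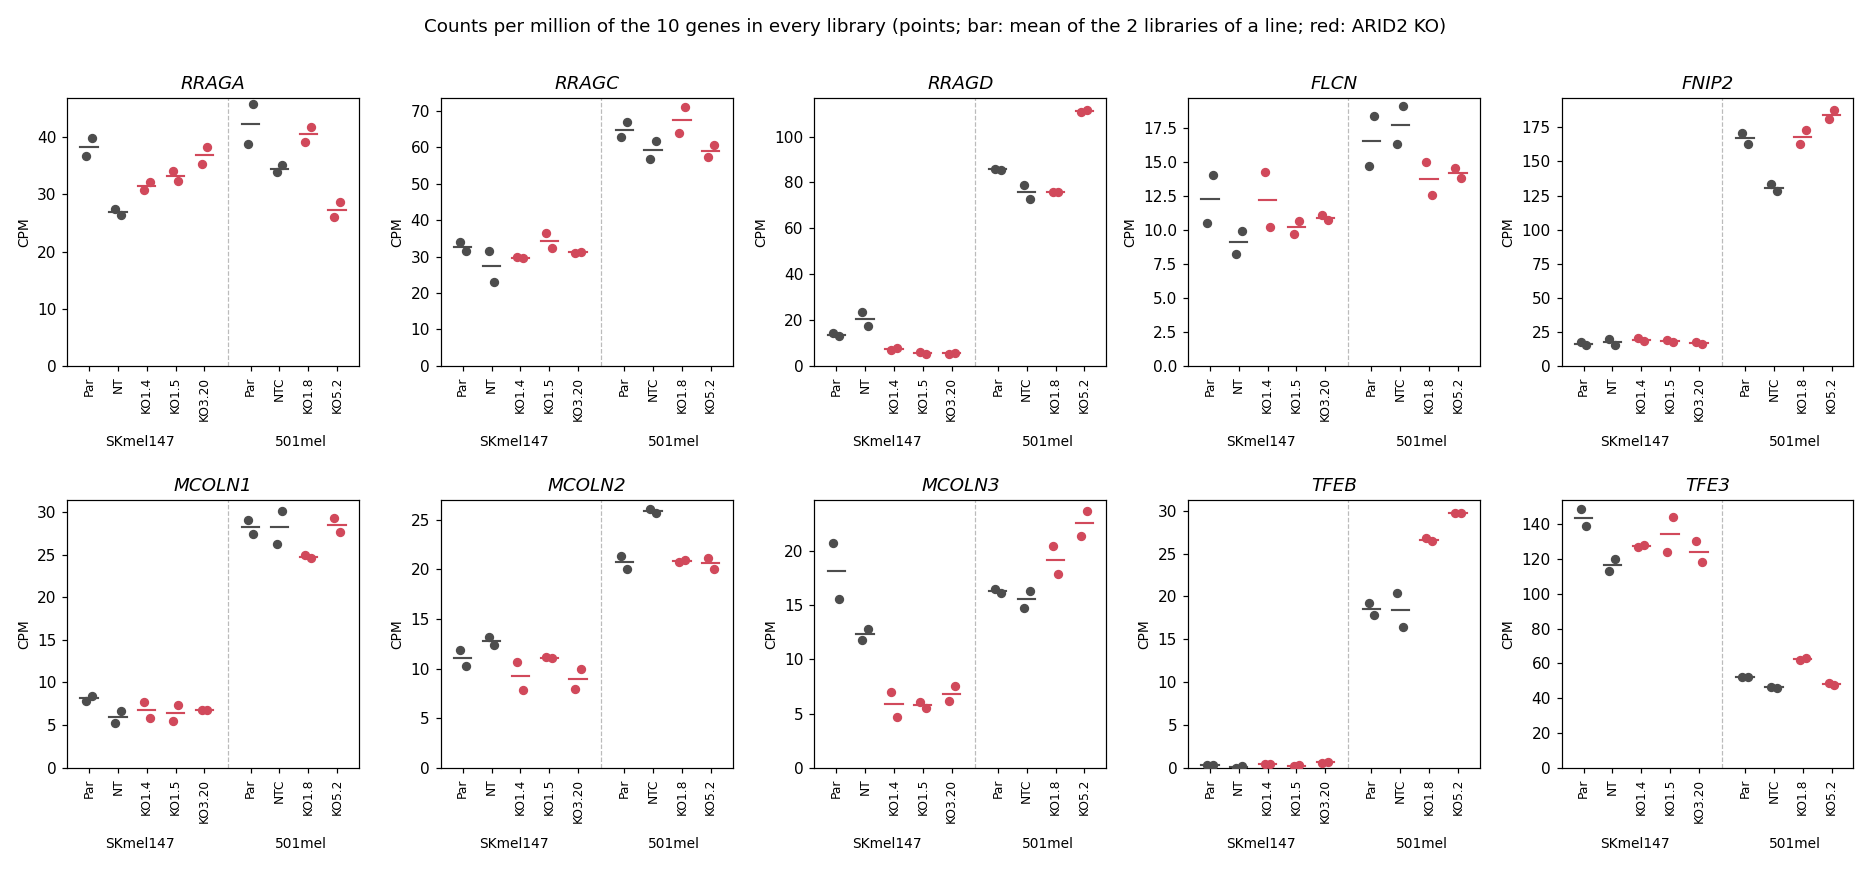
CPM of each gene in every library (points) with the mean of the 2 libraries of a line (bar), SKmel147 left and 501mel right of the dashed line in each panel, ARID2 KO lines in red; the axes start at 0 and differ between panels. RRAGD and MCOLN3 are lowest in the SKmel147 KO lines, MCOLN3 and TFEB are highest in the 501mel KO lines, and TFEB is near 0 in all of SKmel147.

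Between the SKmel147 control lines, NT against Par, RRAGA was the 1 gene called of the 8 that could be tested, beside 9.27% of all genes, at −0.51 ± 0.11 (adjusted p = 0.020). TFEB was among the 8 with only 1 to 10 reads per control library. RRAGA held 36.7 and 39.9 CPM in Par and 27.5 and 26.4 in NT, with no overlap. Its 50 neighbours on chromosome 9 had a median of −0.25.

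In 501mel, 8 of the 10 genes were called between the KO and control lines, beside 51.3% of all 16230 genes tested (edgeR quasi-likelihood test, Benjamini-Hochberg adjusted p under 0.05). TFEB, MCOLN3, FNIP2, RRAGD and TFE3 rose and RRAGA, FLCN and MCOLN2 fell, while 24.7% of all genes rose and 26.5% fell. This test takes the 2 libraries of a line as replicates. With the line as the replicate (edgeR on counts summed per line, 2 lines against 2), 0 of the 10 genes were called, 2 had an unadjusted p under 0.05, and 0 of all genes were called while 2360 had an unadjusted p under 0.05. A limma voom fit in which each line was a random block called TFEB alone of the 10 (adjusted p = 0.0356) and 942 of all genes.

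TFEB, a master regulator of lysosome genes, was at 19.2 and 17.9 CPM in Par and 20.4 and 16.5 in NTC, against 26.8 and 26.4 in KO1.8 and 29.7 and 29.7 in KO5.2. All 4 KO libraries were above all 4 control libraries. TFEB rose by 0.61 ± 0.07 on the log2 scale (adjusted p = 3.83e-06), by 0.53 ± 0.08 in KO1.8 and by 0.69 ± 0.08 in KO5.2, and NTC differed from Par by −0.02 ± 0.10. The 50 tested genes around TFEB on chromosome 6 had medians of 0.23 in KO1.8 and 0.24 in KO5.2, both smaller than the change of TFEB itself. The part of the neighbours in the TFEB change was not tested.

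MCOLN3 was at 16.45 and 16.1 CPM in Par, 14.7 and 16.3 in NTC, 20.5 and 17.8 in KO1.8, and 21.4 and 23.7 in KO5.2. Its KO libraries too were all above the controls, so the direction was opposite to that of the SKmel147 KO lines. MCOLN3 rose by 0.38 ± 0.07 (adjusted p = 3.87e-04), by 0.27 ± 0.09 in KO1.8 and 0.50 ± 0.08 in KO5.2. Its chromosome 1 neighbours had medians of −0.10 and −0.21, the opposite sign. TFEB and MCOLN3 were the 2 of the 10 genes with no overlap between KO and control libraries in 501mel, beside 27.1% of all genes.

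RRAGD was at 86.1 and 85.4 CPM in Par, 78.9 and 72.7 in NTC, 76.0 and 75.6 in KO1.8, and 110.7 and 111.5 in KO5.2. The KO5.2 libraries stood above every other library, and those of KO1.8 lay within the controls. The mean over both KO lines was 0.19 ± 0.04 (adjusted p = 0.00153), made up of 0.46 ± 0.05 in KO5.2 (adjusted p = 2.07e-06) and −0.09 ± 0.05 in KO1.8 (adjusted p = 0.193). The direct difference of KO5.2 and KO1.8 was 0.55 ± 0.06 (adjusted p = 3.82e-06), and the neighbours of RRAGD on chromosome 6 had medians of 0.14 in KO1.8 and 0.24 in KO5.2. MITF fell by 0.15 on the log2 scale in KO1.8 (edgeR adjusted p = 0.0203), where RRAGD was not called. In KO5.2 MITF rose by 0.22 (edgeR adjusted p = 9.71e-04). The MITF difference between the KO lines is not given, and its part in the RRAGD values was not tested.

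RRAGA, which encodes the RagA side of the pair, was at 38.8 and 45.8 CPM in Par, 34.0 and 35.1 in NTC, 39.2 and 41.9 in KO1.8, and 26.01 and 28.7 in KO5.2. Only the KO5.2 libraries lay below the controls. RRAGA fell by 0.48 on the log2 scale in KO5.2 (SE 0.08, adjusted p = 1.03e-04), and the median over its 50 neighbours was −0.48 in the same comparison, and −0.51 over all tested genes of chromosome 9. In KO1.8 it was at 0.09 ± 0.07 beside a neighbour median of 0.00.

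TFE3, like RRAGA, was lower in KO5.2 than in KO1.8, at 52.0 and 52.4 CPM in Par, 46.3 and 46.1 in NTC, 62.1 and 63.4 in KO1.8, and 48.8 and 47.5 in KO5.2. It rose by 0.35 ± 0.05 in KO1.8 (adjusted p = 6.10e-05), where its neighbours on chromosome X had a median of 0.32, and was at −0.03 ± 0.05 in KO5.2 beside −0.27 for the neighbours. The difference of the KO lines was −0.38 ± 0.06 (adjusted p = 1.17e-04).

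**Figure D3:**
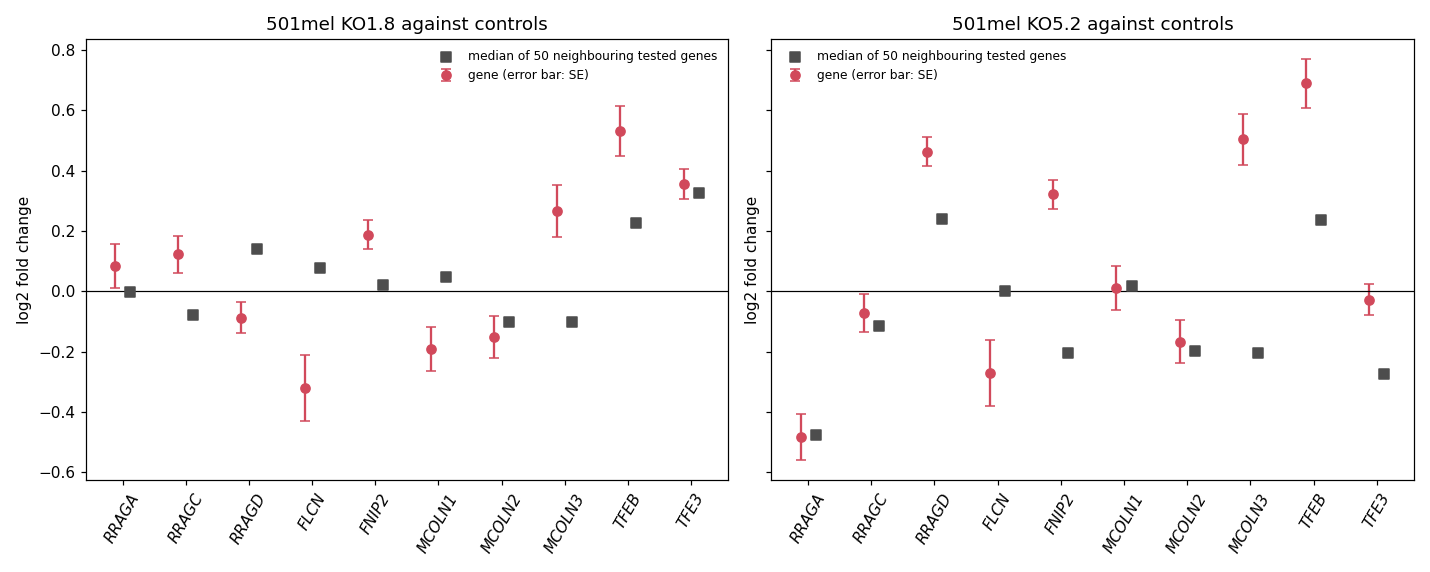
Log2 fold change of each gene (red circles, error bar SE) beside the median over the 50 tested genes nearest to it on its chromosome (grey squares), for 501mel KO1.8 left and KO5.2 right. RRAGA in KO5.2 (−0.48 against −0.48) and TFE3 in KO1.8 (0.35 against 0.32) lie at their neighbours, whereas MCOLN3 and FNIP2 in KO5.2 have the opposite sign to theirs.

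FNIP2 was at 171.2 and 162.5 CPM in Par, 133.1 and 128.2 in NTC, 163.2 and 173.1 in KO1.8, and 181.1 and 187.8 in KO5.2. The NTC libraries were the low ones, with NTC below Par by −0.35 ± 0.06 (adjusted p = 7.68e-04). FNIP2 rose by 0.25 ± 0.04 against both controls (adjusted p = 9.63e-05) but stood at 0.08 (adjusted p = 0.231) against Par alone. MCOLN2 had the same property in reverse: it held 21.4 and 20.05 CPM in Par and 26.05 and 25.6 in NTC, against 20.1 to 21.2 in the 4 KO libraries. MCOLN2 fell by 0.16 on the log2 scale against both controls (adjusted p = 0.0311) and was at 0.0012 against Par alone (adjusted p = 0.992). Against Par alone RRAGD, FLCN and TFE3 also lost their calls, and RRAGA lost its call against NTC alone (−0.05, adjusted p = 0.592).

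FLCN fell by 0.30 on the log2 scale (SE 0.09, adjusted p = 0.0123), from 14.8 to 19.2 CPM in the controls to 12.6 to 15.0 in the KO libraries, and the 2 ranges overlapped. Without NTC replicate 2, RRAGA, FLCN and MCOLN2 all lost their calls, at adjusted p of 0.0589, 0.0797 and 0.0712. Of the FLCN transcript, 30.9% of its 50-base windows also occur in other annotated transcripts, and 42.3% of those of RRAGC, so reads of these genes could be counted elsewhere. RRAGC, at 56.9 to 66.9 CPM in the controls and 57.3 to 71.1 in the KO libraries, was at 0.03 ± 0.05 (adjusted p = 0.704). MCOLN1, with 5.95% of such windows shared, at 26.2 to 30.1 and 24.6 to 29.3 CPM, was at −0.09 ± 0.06 (adjusted p = 0.223). RRAGC and MCOLN1 are the genes with CACGTG in the promoters printed above, and the part of that sequence in their values was not tested.

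**Figure D4:**
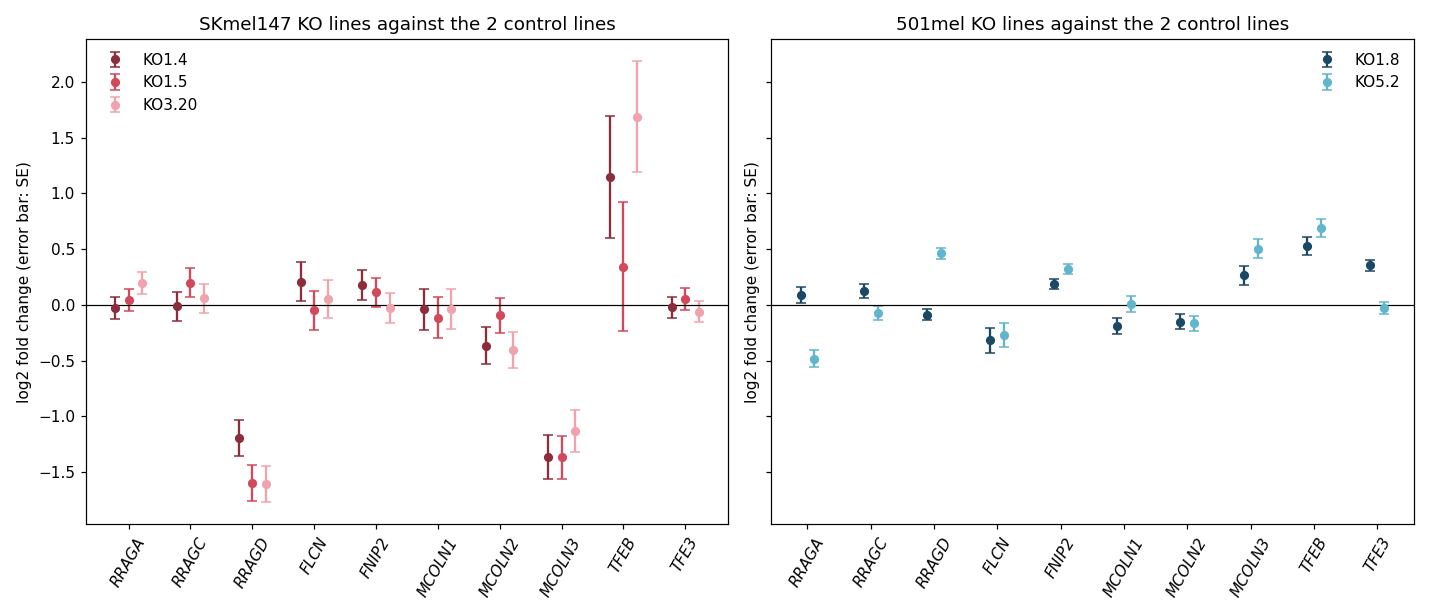
Log2 fold change (point) with its SE (bar) of each gene in each KO line against the mean of the 2 control lines, SKmel147 left and 501mel right. RRAGD and MCOLN3 lie at −1.13 to −1.61 in all 3 SKmel147 KO lines, and MCOLN3 and TFEB are above 0 in both 501mel KO lines, where RRAGD, RRAGA and TFE3 differ between KO1.8 and KO5.2.

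Counted per 501mel line, 5 of the 10 genes were called in KO1.8 (TFEB, MCOLN3, FNIP2 and TFE3 up, FLCN down), beside 40.2% of all genes, and 6 in KO5.2 (TFEB, MCOLN3, FNIP2 and RRAGD up, RRAGA and FLCN down), beside 53.5%. The KO lines differed from each other in 4 genes, RRAGA, RRAGC, RRAGD and TFE3, beside 41.3% of all genes, with RRAGC at −0.19 ± 0.07 (adjusted p = 0.0391). NTC and Par differed in 3 genes, RRAGA, FNIP2 and MCOLN2, beside 15.7% of all genes. The 501mel melanocyte markers summed to 9211 to 9795 CPM in the controls and 6874 to 9583 in the KO libraries, in which TYRP1 was at 980.5 and 995.9 CPM in KO5.2 against 3157 to 4496 in the other lines; its part in the values above was not tested.

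The wider pathway was described with 6 lists holding 90 other genes, of which 87 were tested. In 501mel 31 of them rose and 24 fell, where 24.7% of all genes rose and 26.5% fell, and their median log2 fold change was 0.05 beside −0.01 over all genes. When lines served as the replicates, edgeR called 0 of the 87, with 15 at an unadjusted p under 0.05, and the voom fit called 9. In SKmel147 6 rose and 4 fell, with a median of 0.06 beside −0.01, against the 17.7% of all genes called there. There, too, edgeR over lines called 0, with 9 at an unadjusted p under 0.05, and the voom fit called 1.

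Among the 12 genes around the Rag GTPases (the Ragulator scaffold, mTORC1 and its activators), 1 rose and 3 fell in 501mel. There 51.3% of all genes were called. In SKmel147 1 of the 12 rose and 1 fell, beside 17.7% of all genes called. RHEB, the GTPase that activates mTORC1, fell by 0.43 on the log2 scale (SE 0.04, adjusted p = 4.86e-07), and it also fell in SKmel147, by 0.30 (SE 0.09, adjusted p = 0.0317). MTOR, the kinase, rose by 0.20 ± 0.04 in 501mel and was at 0.01 ± 0.07 in SKmel147, and the Ragulator anchor LAMTOR1 fell by 0.21 in 501mel. RRAGB, which can replace RagA in the pair, was at 0.14 ± 0.10 in 501mel (adjusted p = 0.258) and rose by 0.46 ± 0.08 in SKmel147 (adjusted p = 0.00219), a gene named after its value was seen.

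Among 17 tested amino acid sensing genes, 3 rose and 5 fell in 501mel, beside 51.3% of all genes called. In SKmel147 2 rose and 1 fell, beside 17.7%. SESN2, a leucine sensor induced by stress, fell by 1.09 on the log2 scale in 501mel (SE 0.11, edgeR adjusted p = 1.58e-06) and by 0.39 in SKmel147 (SE 0.12, adjusted p = 0.0397). In 501mel SESN2 also differed between the control lines, NTC minus Par, by −1.11 ± 0.15 (adjusted p = 1.36e-04). SESN3 fell by 0.56 in 501mel (SE 0.06), by 0.99 in KO1.8, while KO5.2 gave −0.12 ± 0.07 (adjusted p = 0.161), and it rose by 0.93 ± 0.15 in SKmel147 (adjusted p = 0.00134). MIOS, of the GATOR2 complex, fell by 0.23 in 501mel and was at 0.15 ± 0.08 in SKmel147.

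Of the 10 channel, PIKfyve and calcineurin genes, 2 rose and 2 fell in 501mel, beside 51.3% of all genes called. In SKmel147 0 rose and 2 fell, beside 17.7%. In 501mel PIKFYVE, the kinase that makes the lipid that opens mucolipin channels, fell by 0.30 on the log2 scale (SE 0.04, edgeR adjusted p = 1.82e-05). Its scaffold VAC14 fell by 0.28 (SE 0.04), while FIG4, the third part of that complex, rose by 0.48 ± 0.06. In SKmel147 these 3 were at 0.09 ± 0.08, −0.10 ± 0.09 and 0.19 ± 0.11, none of them called. MITF was at 0.04 ± 0.04 in 501mel over both KO lines and at −0.14 ± 0.09 in SKmel147, and TFEC, the fourth factor of the family, had 0 to 8 reads per library and was not tested.

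Of 15 tested subunits of the proton pump that acidifies lysosomes, 9 rose and 4 fell in 501mel, beside 51.3% of all genes called, and 3 rose and 0 fell in SKmel147, beside 17.7%. ATP6AP1 rose by 0.46 ± 0.04 and ATP6V1B2 by 0.40 ± 0.04, and ATP6V1D fell by 0.32 (SE 0.04), in 501mel; in SKmel147 they were at 0.13 ± 0.08, −0.13 ± 0.08 and −0.05 ± 0.08. Of 32 lysosomal and autophagy genes, 16 rose and 10 fell in 501mel and 0 were called in SKmel147, beside the same shares of 51.3% and 17.7%. In SKmel147 edgeR gave 8 of the 32 an unadjusted p under 0.05. The protease CTSB rose by 1.28 ± 0.04 (adjusted p = 9.92e-12), the membrane protein LAMP2 by 0.84 ± 0.04 and the protease CTSD by 0.60 ± 0.04 in 501mel. Their values were 1.74, 1.21 and 0.89 in KO5.2 and 0.81, 0.48 and 0.32 in KO1.8, a difference that was not tested here. CTSB and LAMP2 also differed between NTC and Par, by −0.47 ± 0.06 and −0.28 ± 0.07. In SKmel147 these 3 were at 0.12 ± 0.08, 0.22 ± 0.11 and 0.01 ± 0.13.

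**Figure D5:**
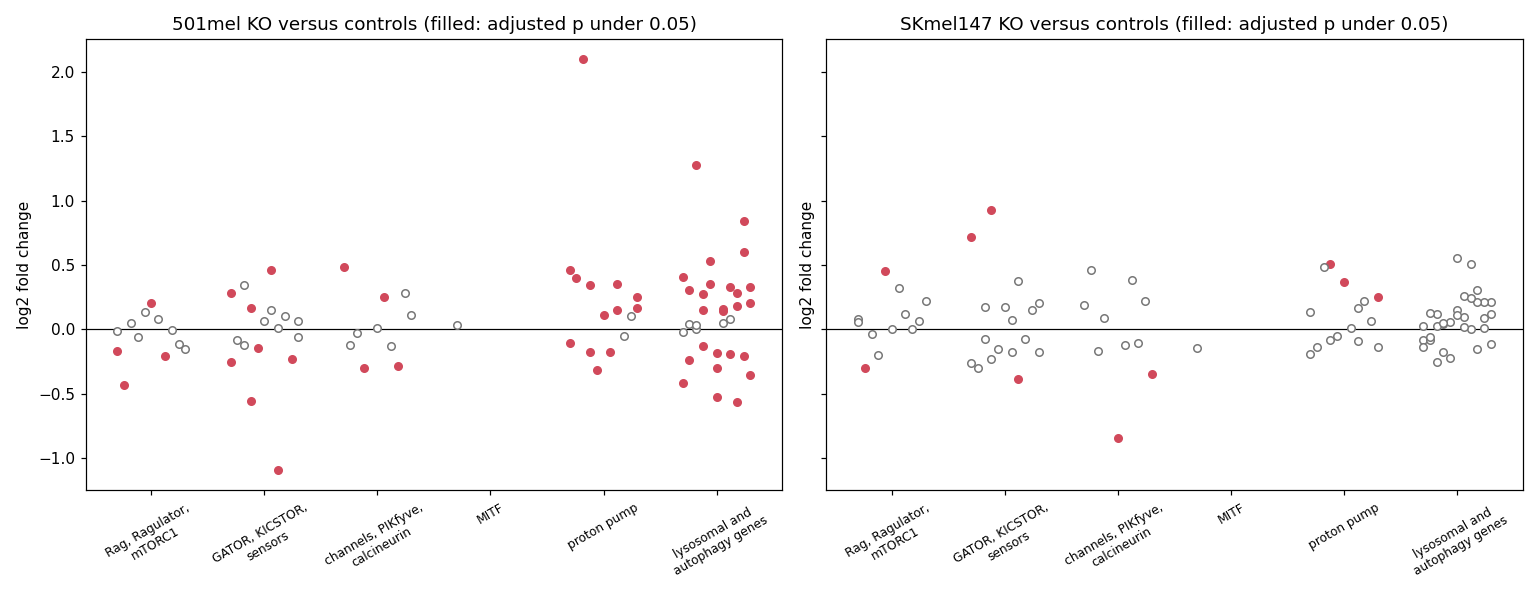
Log2 fold change of KO against control lines for the tested genes of the 6 pathway lists (columns), in 501mel left and SKmel147 right; each point is a gene and filled points passed an adjusted p under 0.05. In 501mel 31 points are filled above 0 and 24 below, in SKmel147 6 and 4; the highest point in 501mel is ATP6V0D2, named after its value was seen, at 1 to 32 reads per library.

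Between the control lines of SKmel147 and 501mel, 62 of the 87 pathway genes were lower in SKmel147 and 17 higher, beside 80.7% of all genes called. Their median log2 difference was −0.76, against 0.10 over all genes, and 8 of the 10 genes described here were lower as well. Between the 501mel control lines, 4 pathway genes were higher in NTC and 15 lower, beside 15.7% of all genes called. Between those of SKmel147, 0 were higher in NT and 11 lower, beside 9.27%.

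Over the 9 lines, after centring each cell line on its own mean, the genes whose log2 CPM most resembled that of RRAGD among 3475 compared were CPVL (Pearson r = 0.975), QSOX1 (0.967), CHST6 (0.950), PHACTR1 (0.948) and ADCY1 (0.945). Those most like MCOLN3 were FN3K (0.944), JUP (0.942), CHST6 (0.939), RP11-375N15.2 (0.933) and PPP2R3B (0.929), so CHST6 was named for both. RRAGD and MCOLN3 had an r of 0.826 with each other. In the SKmel147 KO contrast the genes named here were at −0.88 to −6.60, CPVL lowest. All these values share libraries and depth, and the SKmel147 KO lines on which RRAGD and MCOLN3 were selected are among the points. The r of 0.826 and the falls of the genes named here therefore follow in part from how genes were picked.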

How the data were processed

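Expression was measured by RNA-seq of 18 libraries. The authors deposited raw read counts per gene symbol, 1 table for each cell line. STAR 2.6.0, featureCounts, GRCh37 and hg19 are named in the submitters' processing notes; annotation, strand setting and handling of multi-mapping reads are not given there.

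The counts went into edgeR 4.0.16 under R 4.3.3 (TMM, filterByExpr by line, 1 coefficient per line, quasi-likelihood test, Benjamini-Hochberg adjustment over all genes tested, called under 0.05). KO against controls averages lines with equal weight on each side. Both tables were fitted jointly to compare control lines. CPM uses TMM-scaled totals per cell line. RPKM divides joint CPM by merged exon length in GENCODE 29, which matched 35356 of 56629 symbols and gave the 25 tested genes on each side of a gene; it is on another assembly than the builds named. Libraries of 1 line differed beyond counting error. Scripts were tested on simulated data.

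The 10 genes and the lists were chosen with earlier results of these data known. Named are the 10 genes, ARID2, up to 3 genes per list by smallest p in 501mel and the 5 most like RRAGD and MCOLN3 (centred log2 CPM spanning at least 1); other names are marked. Alternatives were DESeq2 1.42.0 and its size factors, no filter, a replicate block, a single control line, omission of a library or of a KO line, lines as replicates, limma 3.58.1 voom and, chosen after seeing the data, a GC and length correction.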

Additional observations from a re-analysis of the deposited data

Results flagged for a closer look

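RRAGA, RRAGC, RRAGD and TFE3 differed between the 501mel ARID2 KO lines, KO5.2 minus KO1.8, by −0.57, −0.19, 0.55 and −0.38 on the log2 scale (edgeR adjusted p of 1.15e-04, 0.0391, 3.82e-06 and 1.17e-04). These 4 of the 10 genes are near the share over all genes, of which 41.3% were called in that comparison. MCOLN3 had its KO libraries all below the controls in SKmel147 and all above them in 501mel, and the KO effects differed by −1.67 on the log2 scale. This MCOLN3 difference was not tested, because the SKmel147 contrast chose the genes.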

How the results depend on the processing

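In 501mel the member counts with 1 library left out ran from 5 to 7 for both KO lines (8 in full; 5 without NTC replicate 2), from 3 to 5 for KO1.8 (3 without its replicate 2) and from 1 to 3 for NTC against Par (1 without Par replicate 2 or either NTC replicate), and pathway counts in SKmel147 from 6 to 11 (10 in full; 6 without KO1.4 replicate 1 or KO1.5 replicate 2). DESeq2 called 3 members in KO1.8 and 1 between NTC and Par. Replicate numbers showed no pairing shared by all lines. Correlations of replicate differences between lines ran from −0.22 to 0.26 in SKmel147 and from −0.03 to 0.14 in 501mel. Pairing within some of the lines was not tested. A replicate block gave 7 calls between KO5.2 and KO1.8 and 5 between NTC and Par. Against Par alone 3 members were called over both KO lines and 3 in KO1.8, MCOLN2 moved to 0.0012, and 17 pathway genes were called in SKmel147. Against the transduced control alone 8 members were called in KO1.8 and 2076 of all genes in SKmel147. In the alternatives the share of all genes called was not counted for KO1.8, KO5.2, KO5.2 against KO1.8 or NTC against Par. Nothing is therefore read about the members from their counts there. For both 501mel KO lines together, 0 to 9045 of all genes were called over the alternatives. Without KO5.2 5 members were called, with RRAGA at 0.085 and RRAGD at −0.088; without KO1.8 TFE3 was at −0.028. With lines as replicates edgeR called 0 members, 0 pathway genes and 0 of all genes in 501mel, and 0 pathway genes and 13 of all genes in SKmel147; the voom fit called 1, 9 and 942, and 1 and 597. The GC and length correction, chosen after seeing the data, called 27 pathway genes and 5394 of all genes in SKmel147. The cause of these changes was not tested, except that fits without libraries or over lines have fewer units. TFEB kept its 501mel call in 18 of 19 alternatives and lost it in edgeR with lines as replicates. MCOLN3 kept its call in 17 of 19 and lost it in that fit and in the voom fit. These 2 fits are the ones that allow for spread between lines. Groups of 2 libraries were too small for a check of single outlying libraries. At 1 to 22 reads, the low level of TFEB in SKmel147 limits what its values there can show.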
